A study of Mus musculus with 4 samples.

Results

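The Hox genes encode homeodomain transcription factors that lie in 4 clusters, A to D. Members were the probe sets of the array whose platform annotation gave a single gene with a symbol of the form Hoxa, Hoxb, Hoxc or Hoxd followed by a number. This gave 48 of the 45101 probe sets, for 33 of the 39 Hox genes in the gene table and of the 18193 genes that the array could name. Hox genes with no member probe set were not analysed here as single genes. Each gene was read from its probe set with the highest mean, and 23 of the 33 genes were bright enough to be tested.

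In the embryo the clusters are read in the order of their genes. Low-numbered paralogs at one end pattern the hindbrain and neck, and high-numbered paralogs at the other end pattern the lumbar and sacral trunk, limbs and urogenital tract. Adult mesenchyme and many epithelia keep part of this positional pattern, and the Hox11 paralogs are required for the ureteric bud to be induced. Polycomb proteins hold silent parts of a cluster repressed and Trithorax proteins keep active parts open. The TALE-class proteins of the Pbx and Meis families bind DNA beside Hox proteins.

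RNA came from 2 normal ureter samples and 2 ureter tumor samples of C57Bl/6 mice aged 6 to 8 weeks, and each sample was measured on 1 Affymetrix array of total RNA. The text on treatment is the same for all 4 samples: R26rtTA;teto-Cre;Ncstnf/f mice received doxycycline over 1 week when 3 weeks old. Which samples carried which genotype was not stated. In this system rtTA is made from the broadly active R26 locus and Cre only under doxycycline, so recombination is not limited to one cell type. Ncstn encodes nicastrin, a gamma-secretase subunit needed to release the active part of Notch receptors, and the study asked how Notch signaling bears on urothelial cancer. The labels call the samples biological replicates and name no animals, so the p-values rest on the spread among these 4 samples alone, which may be technical.

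The deposited values are MAS5 signals scaled to a trimmed mean of 500 on each array, and precision is limited by how few arrays there are. Correlated over the 13046 tested genes, which are not independent replicates, Pearson's r was 0.976 for the pair of normal samples and 0.786 for the pair of tumors. The 3' to 5' signal ratio of Gapdh, which rises as RNA degrades, stood at 0.920 and 0.923 in normal ureter against 1.51 and 1.44 in the tumors. The same ratio of Actb went the other way, at 2.90 and 2.82 against 2.47 and 2.63, and the part of RNA quality in the results was not tested. The labels describe ureter epithelium, and the 16 listed urothelium markers had a summed signal of 92507 and 142750 in normal ureter, 79435 on tumor replicate 1 and 30259 on tumor replicate 2. Of the umbrella cell markers, Upk3a gave 5987 and 11462 in normal ureter and 69.8 and 52.3 in the tumors. Both tumor arrays lay below both normal arrays in 10 of the 16 urothelium genes, beside 27.7% of all genes. In 3 genes, Krt5, Trp63 and Foxa1, tumor replicate 1 lay above and tumor replicate 2 below both normal arrays, beside 8.95%. Trp63, for example, gave 2446 and 3847 in normal ureter, 10167 on tumor replicate 1 and 440 on tumor replicate 2. The normal arrays also carried fat cell and smooth muscle markers, given below. Ncstn (1418570_at) gave 99.0 and 66.2 in normal ureter against 81.6 and 131 in the tumors. Which part of Ncstn was deleted was not stated, so this checks neither the deletion nor the labels.

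No Hox gene passed the test between tumor and normal ureter, and Hoxb9 came closest. It stood highest, at 5.59-fold above normal on the signal + 16 scale. Both tumor arrays exceeded both normal arrays in 6 of the 23 tested Hox genes, beside 29.4% of all genes. These were Hoxa3, Hoxb3, Hoxb9, Hoxd8, Hoxd9 and Hoxd10, although the groups overlapped in another probe set of Hoxa3 past the filter. All 6 tested genes of cluster C had a negative tumor minus normal difference, although Hoxc10 turned positive under quantile normalization (0.015) and median centring (0.099), and Hoxc4, Hoxc9 and Hoxc10 did so without tumor replicate 1 (0.0021, 0.86 and 1.07). Hoxa2, Hoxa5, Hoxc5 and Hoxc8, 4 of the 23 genes, were lower on both tumor arrays than on both normal arrays, beside 27.7% of all genes. Almost every tested Hox gene, 22 of 23, had a higher signal on tumor replicate 2 than on tumor replicate 1, beside 48.8% of all genes.

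Signals have arbitrary units. Levels are log2(signal + 16), and a difference is the tumor mean minus the normal mean of these levels, which understates changes of dim genes. Folds are also given on the signal + 16 scale. The limma test across all genes, with Benjamini-Hochberg adjustment and a threshold of 0.05, called 0 of the 23 Hox genes, beside 1.43% of all genes tested (0.491% higher and 0.943% lower). At an unadjusted p under 0.05 there were 3 Hox genes (Hoxb9, Hoxc5 and Hoxd9), beside 21.5% of all genes. The median difference of the Hox genes was 0.06 and that of all genes tested 0.03. Median centring moved the median of all genes to 0.22 and that of the Hox genes to 0.26. The tumors both exceeded the normal pair in 6 of the 23 Hox genes, beside 29.4% of all genes, and both lay below it in 4, beside 27.7%.

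**Figure D1:**
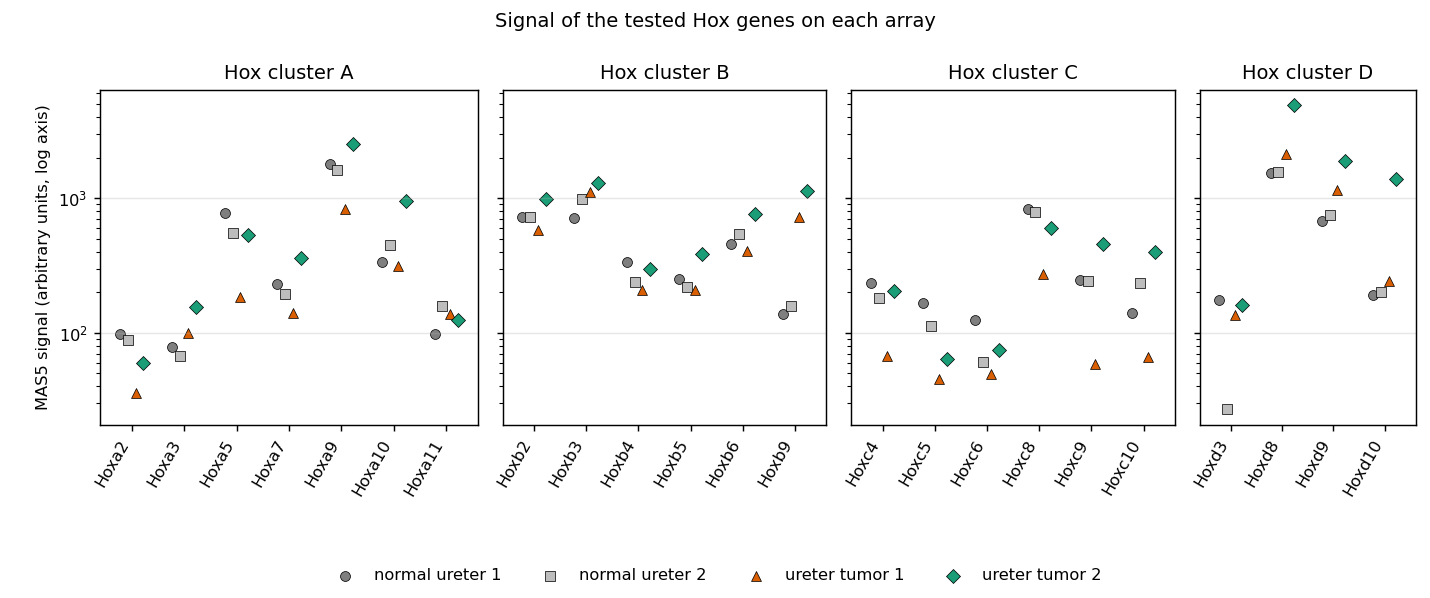
MAS5 signal (log axis, arbitrary units) of the 23 tested Hox genes on each of the 4 arrays, by cluster and paralog number; each point is 1 array. Hoxb9 lies at 139 and 160 in normal ureter and at 725 and 1132 in the tumors, and in most genes the point of tumor replicate 2 (diamond) lies above that of tumor replicate 1 (triangle).

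Cluster B held the gene with the largest difference of all tested Hox genes. Hoxb9 (1452317_at), which helps pattern the ribs and lower thorax, read 139 and 159.6 in normal ureter and 725 and 1132 in the tumors. Both tumor arrays were far above both normal arrays, and the normal arrays were close together. The difference was 2.48 (limma adjusted p = 0.062, SE 0.32, n = 2 per group), so the gene missed the threshold. Over the 15 alternative settings the difference ran from 2.17 to 2.80 and the adjusted p from 2.18e-06 to 0.662. The difference was 2.17 without tumor replicate 2 and 2.80 without tumor replicate 1.

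The other tested genes of cluster B lay closer to their normal levels. Hoxb3, a hindbrain and pharyngeal patterning gene, read 717 and 994 in normal ureter and 1113 and 1293 in the tumors, a difference of 0.50 (SE 0.25, limma adjusted p = 0.338). Its dimmer probe set 1427605_at also lay higher on both tumor arrays, at 150.4 and 214 against 99.8 and 88.0. Hoxb2, another hindbrain gene, Hoxb5, which acts in the enteric neural crest, and Hoxb6 each lay below both normal arrays on tumor replicate 1 and above both on tumor replicate 2. Hoxb2, for example, gave 728 and 723 in normal ureter, 577 on tumor replicate 1 and 991 on tumor replicate 2. Hoxb4, known for expanding blood stem cells, had a difference of -0.19, or 0.0033 under median centring, and its groups overlapped. The adjusted p-values of Hoxb2, Hoxb4, Hoxb5 and Hoxb6 ran from 0.744 to 0.936.

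In cluster D all 4 tested genes had a positive difference, with a median of 1.04, although Hoxd3 turned to -0.22 without normal replicate 2. The probe sets shared by Hoxd4 and Hoxd3, which were not tested, had differences of -0.71 and -0.58. The neighbours near the middle of the cluster, Hoxd8, Hoxd9 and Hoxd10, which pattern the lumbar trunk and the limbs, were higher on both tumor arrays than on both normal arrays. Hoxd8 (1431099_at) read 1542 and 1575 in normal ureter and 2123 and 4934 in the tumors. Its second probe set, 1433638_s_at, gave 426 and 557 against 960.1 and 3026. Hoxd9 (1419126_at) read 675 and 745 in normal ureter and 1148 and 1898 in the tumors. Hoxd10 (1418606_at) read 192 and 200.1 in normal ureter, 245 on tumor replicate 1 and 1393 on tumor replicate 2.

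The groups did not overlap in these genes, but tumor replicate 2 carried most of the difference of Hoxd10. The differences were 1.05 for Hoxd8 (limma adjusted p = 0.286, SE 0.45, n = 2 per group), 1.04 for Hoxd9 (SE 0.31, adjusted p = 0.179) and 1.52 for Hoxd10 (SE 0.88, adjusted p = 0.393). On tumor replicate 1 alone Hoxd8, Hoxd9 and Hoxd10 lay 0.44, 0.68 and 0.30 above the normal mean, and on tumor replicate 2 they lay 1.65, 1.40 and 2.73 above it. Hoxd3, a paralog of the cervical region, gave 174 and 27.0 in normal ureter against 135 and 160.5 in the tumors. Its normal arrays differed by 2.14 on the log2(signal + 16) scale, and on that scale it was the only 1 of the 23 genes whose normal arrays differed by 2-fold or more, beside 3.52% of all genes. Normal replicate 2 was above normal replicate 1 in 9 of the 23 Hox genes, beside 49.3% of all genes.

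The stretches of 250 bases before the start of Hoxd8, Hoxd9 and Hoxd10 are shown because these neighbours lay above the normal arrays together, with CG pairs in capitals. They come from RefSeq on build GRCm38.p6 and read 5' to 3' on the plus strand, at chr2:74704365-74704614 for Hoxd8, chr2:74697513-74697762 for Hoxd9 and chr2:74691641-74691890 for Hoxd10.
Hoxd8: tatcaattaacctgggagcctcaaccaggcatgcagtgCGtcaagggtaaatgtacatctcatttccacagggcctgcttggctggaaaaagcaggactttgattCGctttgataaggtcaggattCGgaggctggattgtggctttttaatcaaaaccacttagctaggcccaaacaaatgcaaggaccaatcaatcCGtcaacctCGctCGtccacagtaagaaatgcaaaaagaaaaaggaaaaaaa
Hoxd9: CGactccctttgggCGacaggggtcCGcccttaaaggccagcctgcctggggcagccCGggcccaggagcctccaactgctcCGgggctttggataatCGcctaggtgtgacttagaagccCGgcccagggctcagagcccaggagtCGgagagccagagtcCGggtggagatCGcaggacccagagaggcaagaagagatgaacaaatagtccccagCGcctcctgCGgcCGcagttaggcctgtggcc
Hoxd10: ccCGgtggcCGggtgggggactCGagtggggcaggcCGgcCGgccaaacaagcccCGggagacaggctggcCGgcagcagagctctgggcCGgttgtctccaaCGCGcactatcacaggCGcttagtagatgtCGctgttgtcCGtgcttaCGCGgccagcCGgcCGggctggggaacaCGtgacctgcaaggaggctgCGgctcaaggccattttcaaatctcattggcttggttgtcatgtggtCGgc

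The windows held 6 CG pairs for Hoxd8, 13 for Hoxd9 and 20 for Hoxd10. The median was 12.5 over 24 Hox windows of 22 genes and 6 over all 32851 windows of this length. These motifs were searched on both strands: TGATNNAT, bound by Pbx with Hox proteins; GCGNGGGCG, bound by Egr proteins; the GC box GGGCGG, which can overlap the Egr motif; and the TATA box TATAAA. Only a GC box before Hoxd9 was found in these 3 windows, and a GC box was in 10 of the 24 Hox windows and 32.7% of all windows. The Pbx-Hox motif was in 4 Hox windows and 7.68% of all windows, the Egr motif in 2 and 4.70%, and the TATA box in 4 and 12.4%.

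Cluster C genes, which pattern the neck, thorax and lumbar trunk, were low on tumor replicate 1. All 6 tested genes lay below the normal mean there, beside 6464 of all 13046 genes, with a median of -1.36. On tumor replicate 2 the median was -0.10, and 3 of the 6 lay above the normal mean, beside 6875 of all 13046 genes. Hoxc8 (1452412_at), a thoracic patterning gene, read 826 and 789 in normal ureter, 274 on tumor replicate 1 and 599 on tumor replicate 2. Hoxc5 (1439885_at) read 166 and 113 in normal ureter and 45.8 and 63.6 in the tumors. In both genes the tumor arrays lay below the normal arrays. The differences were -0.96 for Hoxc8 (limma adjusted p = 0.296, SE 0.43, n = 2 per group) and -1.13 for Hoxc5 (SE 0.40, adjusted p = 0.220).

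The high-numbered genes of cluster C split the tumor arrays. Hoxc9 (1449867_at), which sets the identity of thoracic motor neurons, read 248 and 244 in normal ureter, 58.8 on tumor replicate 1 and 459.9 on tumor replicate 2. Hoxc10 (1439798_at), its lumbar neighbour, read 139 and 233 in normal ureter, 66.3 on tumor replicate 1 and 396 on tumor replicate 2. Both genes were below the normal arrays in the one tumor and above them in the other, by factors of 3.50 and 1.82 for Hoxc9. Their mean differences were -0.47 and -0.10, with adjusted p-values of 0.814 and 0.964. Hoxc4 gave 234 and 180.2 in normal ureter, 67.3 on tumor replicate 1 and 206 on tumor replicate 2, the last of these between the normal arrays. Hoxc6 had a difference of -0.44, and its second probe set past the filter, 1427362_x_at, one of -1.27.

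Fat cell markers were lower on both tumor arrays than on both normal arrays, and 2 of 8 passed the test. The 8 of 10 listed fat cell markers on the array had a summed signal of 369300 and 379990 in normal ureter, 48796 on tumor replicate 1 and 16652 on tumor replicate 2. Their brightest gene, Fabp4, a fatty acid carrier, gave 105910 and 124150 against 25536 and 6072. The summed fat cell signal was lower on tumor replicate 2 than on tumor replicate 1, although 1 of the 8 genes was higher on it. In bulk tissue fewer cells of a type and less RNA per cell cannot be told apart. The part of fat cells in the values of cluster C and the other Hox genes was not tested.

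Cluster A repeated the split in its middle and high-numbered genes. Hoxa9 (1455626_at), which also acts in blood progenitors, read 1807 and 1622 in normal ureter, 838 on tumor replicate 1 and 2529 on tumor replicate 2. Hoxa10 (1431475_a_at), a patterning gene of the uterus, read 337 and 452 in normal ureter, 313 on tumor replicate 1 and 962 on tumor replicate 2. Hoxa7 (1449499_at) gave 232 and 194 in normal ureter, 141 on tumor replicate 1 and 361 on tumor replicate 2. Each of these genes lay below both normal arrays on the first tumor and above both on the second, and their differences ran from -0.23 to 0.48 with adjusted p-values from 0.687 to 0.937. The second probe set of Hoxa9, 1421579_at, lay below both normal arrays on both tumor arrays, at 182 and 351 against 438 and 473.

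Hoxa5 (1448926_at), a gene of lung and trunk patterning, read 774 and 556 in normal ureter, 184 on tumor replicate 1 and 533 on tumor replicate 2. Both tumor arrays lay below both normal arrays, though tumor replicate 2 only by a small margin, and the difference was -1.02 (limma adjusted p = 0.382, SE 0.57, n = 2 per group). Its second probe set, 1443803_x_at, gave 168 on tumor replicate 1 and 441 on tumor replicate 2, and the latter lay between the normal arrays at 431 and 448. Hoxa2, a hindbrain gene, read 97.4 and 88.0 in normal ureter and 35.5 and 60.2 in the tumors, a difference of -0.79 (adjusted p = 0.345). Hoxa3 (1427433_s_at), which patterns the thymus and parathyroid, read 78.3 and 67.3 in normal ureter and 99.1 and 155.9 in the tumors. Its difference was 0.67 (limma adjusted p = 0.393), but averaging its 4 probe sets gave -0.083. The other probe set of Hoxa3 past the filter, 1452421_at, gave 125 and 68.7 against 56.3 and 145, a difference of -0.018. Hoxa11, needed with its paralogs to induce the ureteric bud, gave 97.7 and 159.7 in normal ureter against 139 and 125 in the tumors. Both tumor arrays of Hoxa11 lay between the normal arrays.

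Paralog groups 9 and 10 each held differences of both signs. In group 9 the differences were -0.23 for Hoxa9, 2.48 for Hoxb9, -0.47 for Hoxc9 and 1.04 for Hoxd9. In group 10 they were 0.48 for Hoxa10, -0.10 for Hoxc10 and 1.52 for Hoxd10. In group 3 the tested members Hoxa3, Hoxb3 and Hoxd3 were all positive, with the exceptions under other settings given above for Hoxa3 and Hoxd3. By position, the median difference was 0.06 over the 7 tested genes of paralogs 1 to 4, -0.17 over the 8 of paralogs 5 to 8 and 0.27 over the 8 of paralogs 9 to 13. Set by cluster it was 0.06 for A, 0.20 for B, -0.59 for C and 1.04 for D.

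**Figure D2:**
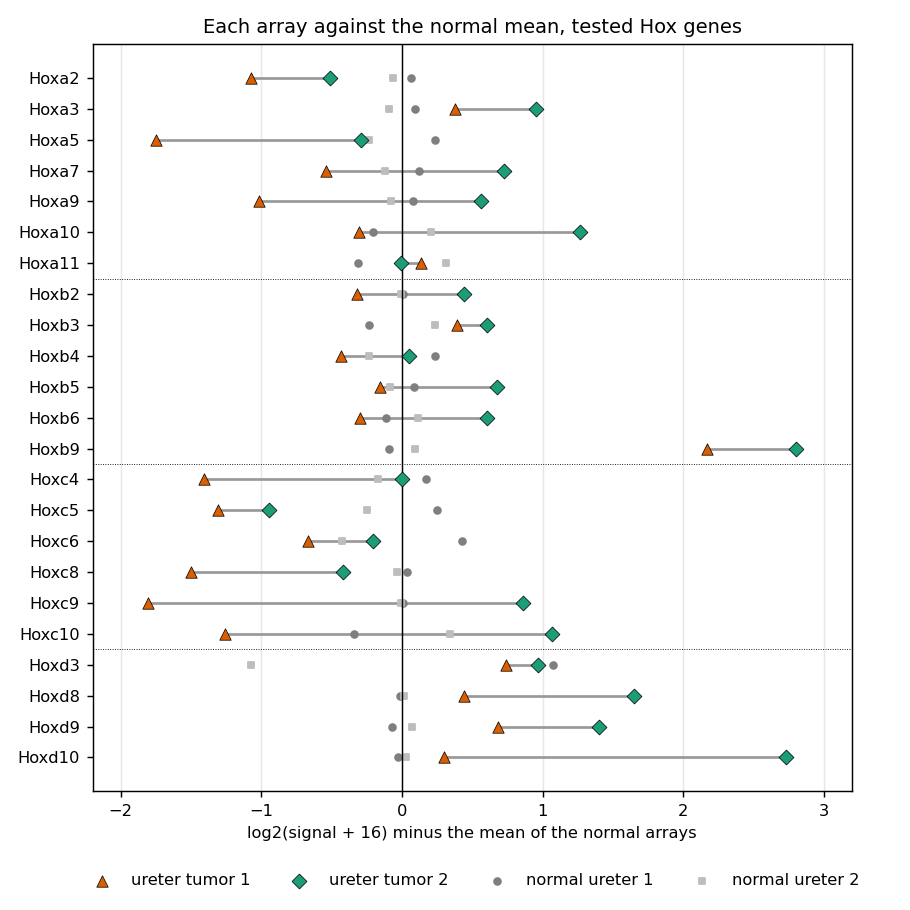
Each array's log2(signal + 16) minus the mean of the normal arrays for the 23 tested Hox genes; each point is 1 array, a line joins the tumor arrays, and dotted lines part the clusters A to D. Tumor replicate 2 lies to the right of tumor replicate 1 in 22 of the 23 genes, with Hoxa11 the exception.

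The tumor arrays differed from each other in most Hox genes. On tumor replicate 1 the median over the 23 genes was -0.32 against the normal mean, and 15 genes lay below that mean. Over all genes tested the median was 0.01, and 6464 of 13046 lay below. On tumor replicate 2 the Hox median was 0.61, and 17 of the 23 genes lay above the normal mean. Over all genes tested the median was 0.04, and 6875 of 13046 lay above. Tumor replicate 2 was above tumor replicate 1 in 22 of 23 genes, beside 48.8% of all genes tested, and at least 2-fold above it in 10, beside 12.5%. No Hox gene was at least 2-fold higher on tumor replicate 1, beside 10.7% of all genes. In 8 Hox genes tumor replicate 1 lay below and tumor replicate 2 above both normal arrays, beside 11.5% of all genes, and in 0 the reverse held, beside 8.95%. On the signal + 16 scale the gap was 6.37-fold for Hoxc9, 5.40-fold for Hoxd10 and 5.01-fold for Hoxc10. With 1 array for each tumor these counts describe the arrays and carry no test, and neighbouring Hox genes are not independent of each other.

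Most kidney markers followed the same order of the tumor arrays. The 11 of 12 listed markers of kidney tubule and collecting duct on the array had a summed signal of 22972 and 28305 in normal ureter, 9631 on tumor replicate 1 and 137570 on tumor replicate 2. In 10 of these 11 genes tumor replicate 1 lay below and tumor replicate 2 above both normal arrays, against 8 of the 23 Hox genes. No kidney marker was at 0 and the lowest signal was 2.33. Umod, uromodulin of the loop of Henle and the brightest of the list, gave 4997 and 9982 in normal ureter, 1268 on tumor replicate 1 and 57258 on tumor replicate 2. The kidney expresses many Hox genes, and the part of kidney RNA in the Hox values was not tested. The summed kidney signal was 0.376 times the normal mean on tumor replicate 1 and 5.37 times on tumor replicate 2. Hoxb9 was 4.49-fold and 6.96-fold above the normal mean on these arrays, and no test related it to the kidney markers.

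**Figure D3:**
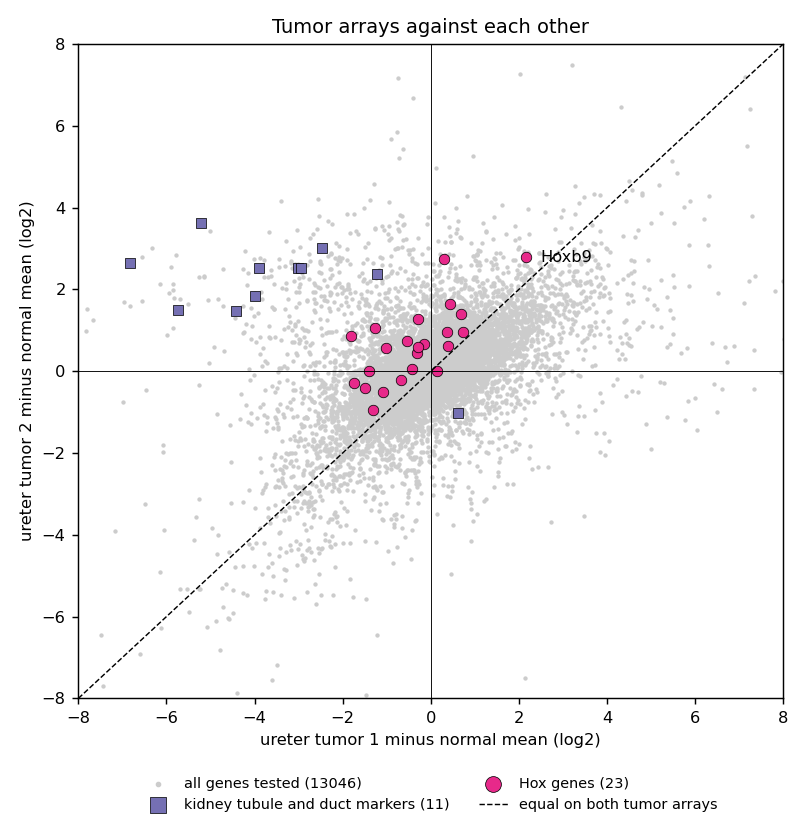
Difference of each tumor array from the mean of the normal arrays (log2) for all 13046 genes tested (grey), the 23 Hox genes (circles) and the 11 kidney markers (squares); 18 genes lie outside the axes. All Hox genes but 1 and all kidney markers but 1 lie above the dashed line of equal values, and Hoxb9 lies at 2.17 and 2.80.

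The summed signals of the mast cell, fibroblast, macrophage, fat cell and urothelium markers were lower on tumor replicate 2 than on tumor replicate 1. That of the smooth muscle markers was higher, but only 4 of the 10 genes were higher on tumor replicate 2. Endothelial markers summed to 5949 on tumor replicate 1 and 7373 on tumor replicate 2, and 6 of 8 genes were higher on the latter, beside 48.8% of all genes. The 8 intestinal markers summed to 163 and 1650. In 2 of their 2 tested genes tumor replicate 1 lay below and tumor replicate 2 above both normal arrays, beside 11.5% of all genes. Mast cell markers (9 of 9 on the array) had a summed signal of 804 and 680.2 in normal ureter, 109970 on tumor replicate 1 and 688 on tumor replicate 2, and their brightest tested gene by mean log2 level, the carboxypeptidase Cpa3, gave 8095 on tumor replicate 1 and 51.7 on tumor replicate 2. Fibroblast markers (10 of 10) summed to 122810 and 93947 in normal ureter, 167140 on tumor replicate 1 and 72608 on tumor replicate 2, and Col3a1, a fibrillar collagen, was their brightest. Smooth muscle markers (10 of 10) summed to 59173 and 47592, then 17606 and 27311, and their brightest gene, Acta2, gave 9957 on tumor replicate 1 and 18209 on tumor replicate 2. Macrophage markers (10 of 10) summed to 12143 and 10352 in normal ureter and to 55952 and 42510 in the tumors, and 4 of the 10 rose in the limma test, among them Csf1r at 1.96 (adjusted p = 0.0425, n = 2 per group), a call that ended under median centring, without the filter or the trend, with the mean of probe sets, with the replicate block, and without either normal array. The brightest urothelium marker, the keratin Krt7, gave 14089 and 23467 in normal ureter, 19322 on tumor replicate 1 and 6708 on tumor replicate 2. No marker of these lists was at 0, and their part in the Hox values was not tested.

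**Figure D4:**
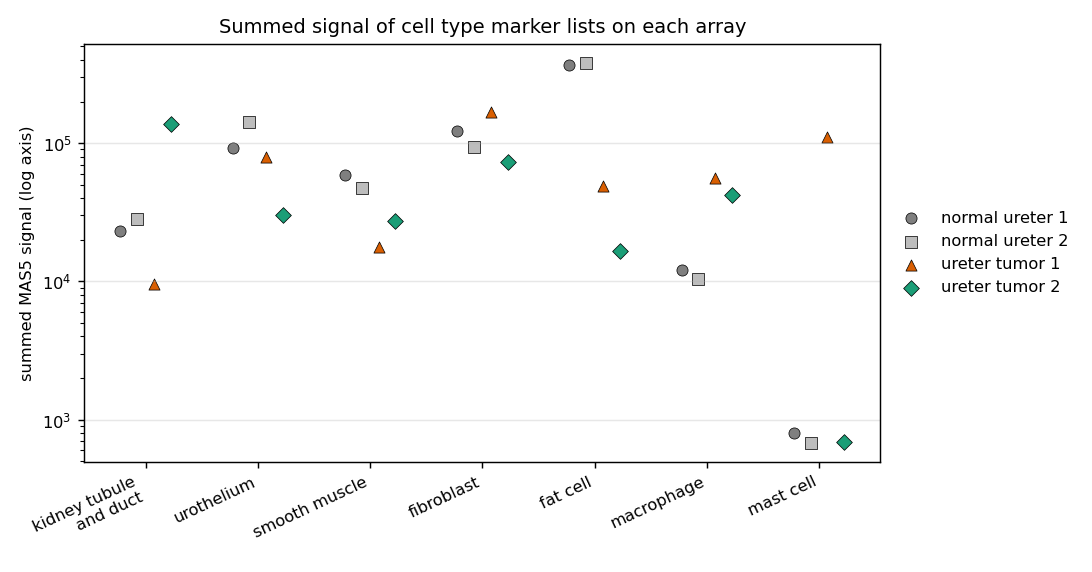
Summed MAS5 signal (log axis) of 7 cell type marker lists on each array; each point is 1 array. Kidney markers are highest on tumor replicate 2 (137570) and lowest on tumor replicate 1 (9631), while mast cell markers are highest on tumor replicate 1 (109970).

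Each tumor set alone against the normal arrays gave a different Hox picture. The lone tumor was then assumed to vary like the normal arrays, whose correlation was 0.976, and limma called 4298 and 5502 of all genes. Without tumor replicate 1, 8 Hox genes were called higher and 0 lower, beside 17.4% and 15.5% of all genes. These were Hoxa9, Hoxa10, Hoxb9, Hoxc9, Hoxc10, Hoxd8, Hoxd9 and Hoxd10, all paralogs 8 to 10, with adjusted p-values from 9.18e-07 to 0.0357. Without tumor replicate 2, 2 Hox genes were called higher and 7 lower, beside 21.1% each of all genes. The higher genes were Hoxb9 and Hoxd9, and the lower ones were Hoxa5, Hoxa9, Hoxc4, Hoxc5, Hoxc8, Hoxc9 and Hoxc10, with adjusted p-values from 3.53e-05 to 0.0439. Of the 5 genes called both times, Hoxb9 and Hoxd9 kept their direction and Hoxa9, Hoxc9 and Hoxc10 changed it.

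The 10 Hox genes below the filter were Hoxa4, Hoxa13, Hoxb1, Hoxb7, Hoxb13, Hoxc13, Hoxd1, Hoxd11, Hoxd12 and Hoxd13, which include 4 of the 4 genes of paralog group 13. The 18 member probe sets below the filter had signals from 1.14 to 86.1 on single arrays, and at this level MAS5 values have no firm order. The dimmest tested gene, Hoxa2, had a mean signal of 66.5, beside a limit of 54.65, and the brightest untested one, Hoxa13, had 38.8. Hoxd11, the next gene after Hoxd10 and one of the kidney-inducing Hox11 paralogs, gave 2.61 and 7.58 in normal ureter against 24.1 and 62.1 in the tumors. It was the only 1 of the 18 dim probe sets with both tumor arrays above both normal arrays, and 4 lay below. The matching shares of all probe sets below the filter were not measured, so neither an excess nor a lack can be read from these counts. Over all 48 member probe sets, tumor replicate 2 was above tumor replicate 1 in 39, beside 51.2% of all single-gene probe sets, in 28 of the 30 past the filter and in 11 of the 18 below it. Of 7 genes with several probe sets past the filter, the probe sets had one sign in 6, Hoxa3 being the exception. Of the 48, 2 carry the suffix _s_at and 3 the suffix _x_at, which mark probes that can match related transcripts.

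Of 12 listed Hox antisense and intergenic transcripts 3 were on the array, all 3 were tested, and limma called 0, with 1 at an unadjusted p under 0.05. Their differences were negative, but those of Hoxa11os and Hoxb5os changed sign under other settings (0.46 and 0.14 at the highest, apart from leaving out arrays). Hoxd3os1 (1460056_at), antisense to Hoxd3, read 594 and 576 in normal ureter and 264 and 325 in the tumors, a difference of -0.96 (limma adjusted p = 0.149, SE 0.24, n = 2 per group). Its tumor arrays lay below the normal arrays, while those of Hoxd8, Hoxd9 and Hoxd10 in the same cluster lay above. Hoxb5os (1447886_at), named for its place opposite Hoxb5, read 1002 and 1185 in normal ureter, 228 on tumor replicate 1 and 4610.1 on tumor replicate 2. Like Hoxb5 and Hoxb6, it lay below both normal arrays on tumor replicate 1 and above both on tumor replicate 2. The gap between the tumors was wider, at 4.24 log2 units. For Hoxa11os the difference was -0.26 (adjusted p = 0.667), while averaging over its probe sets gave 0.46.

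The TALE-class cofactors of Hox proteins were brighter in the tumors for some genes and dimmer for others, and limma called 0 of 6 tested (2 at an unadjusted p under 0.05), with a median of 0.58. Pbx3 read 554 and 426 in normal ureter and 922 and 1157 in the tumors, a difference of 1.06 (limma adjusted p = 0.138, SE 0.26, n = 2 per group). Meis2 had a difference of 0.69 (adjusted p = 0.181), Pknox1 one of 0.46 and Pknox2 one of 0.81. Meis1 (493 and 498 against 432 and 251) and Pbx2 (854 and 866 against 726 and 618) were lower on both tumor arrays. Tumor replicate 2 was above tumor replicate 1 in 1 of these 6 genes, unlike in 22 of the 23 Hox genes; the difference between these counts was not tested.

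No chromatin regulator of the clusters passed the test. Of 22 tested Polycomb genes limma called 0 (1 at an unadjusted p under 0.05), with a median of 0.18, and the smallest p-values belonged to Phc1, Rnf2, Kdm2b and Phc2, with differences from 0.42 to 0.74 and adjusted p-values from 0.200 to 0.294. Of 17 tested Trithorax and MLL genes it called 0 (2 at an unadjusted p under 0.05), with a median of 0.16. Kdm6b, a demethylase that removes the Polycomb mark, read 639 and 723 in normal ureter and 1176 and 1413 in the tumors, a difference of 0.91 (SE 0.21, limma adjusted p = 0.131, n = 2 per group). Hcfc1, Ash2l and Men1, which belong to complexes of the MLL methyltransferases, had differences of 0.77, 0.49 and 0.55. That of Men1 was -0.011 when its probe sets were averaged. Other genes of this list went down. Kmt2a gave 907 and 934 in normal ureter against 741 and 729 in the tumors, and Dot1l gave 484 and 366 against 261 and 315. Among the 17 genes, the tumor pair exceeded the normal pair in 7 and fell short of it in 3. Of the upstream regulators 3 of 8 were tested and 1 passed: Egr2, a zinc-finger factor that activates Hoxa2 and Hoxb2 in the hindbrain, rose by 2.90 log2 units (limma adjusted p = 0.0435, SE 0.28, n = 2 per group). It gave 53.7 and 63.8 in normal ureter against 539 and 545 in the tumors, while Hoxa2 was lower in the tumors and Hoxb2 split them. The call of Egr2 ended under 6 of the 15 settings, with adjusted p from 0.0501 to 0.655. Gata3 and the insulator factor Ctcf had differences of -0.81 and 0.15, and the caudal genes Cdx1, Cdx2 and Cdx4 were below the filter.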

How the data were processed

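Total RNA of 4 samples was hybridised to single-channel Affymetrix mouse arrays, 1 each. The authors deposited linear signal intensity values for each probe set. MAS5 is the tool in the submitters' processing notes, with no version, and detection calls were not used here. The table held 45101 probe sets, of which 64 controls were left out. Symbols came from the platform annotation, updated through a RefSeq gene table (GRCm38.p6) for 34741 of 34945 single-gene probe sets. Signals were transformed as log2(signal + 16). For each gene the brightest single-gene probe set, by mean level, was used, and the 13046 of 18193 genes at or above the 40th percentile of probe set means (54.65) were tested with limma 3.58.1 in R 4.3.3. The fit was two-sided and had an intensity trend, 2 residual and 2.11 prior degrees of freedom. An exact permutation test of 2 against 2 cannot go below p = 0.333 and was not used. The procedure was tested on simulated data in which all 4 arrays had the spread of the normal pair. It called 0.0271% of unchanged genes, 25.2% of genes changed by 1 log2 unit and 54.3% of those changed by 2. The real tumor pair was more spread, so the simulation cannot say how many changes were missed here. The members and gene lists were chosen with earlier results of these data known.

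All tested Hox genes are named, with the 4 genes of smallest unadjusted p from each list of cofactors, regulators and antisense transcripts, and, by mean log2 level, the brightest tested gene of the 7 cell type lists drawn. Lists of endothelial (0 of 8 called, median tumor minus normal difference -0.24), B and plasma cell (1 of 7, 2.92), T and NK cell (0 of 5, 1.20), neutrophil (0 of 5, 3.79), myeloid progenitor (0 of 4, 0.05), nerve and Schwann cell (0 of 3, 1.25), intestinal (0 of 2, 0.20) and genital tract genes (0 of 6, 0.48) were also measured, and 0 of 5 Evx and paraHox genes passed the filter. Of the lists drawn, limma called 4 of 16 urothelium, 1 of 10 smooth muscle and 2 of 8 fat cell genes lower, and 0 of 10 fibroblast, 0 of 11 kidney and 0 of 7 mast cell genes. Upk3a, Krt5, Trp63, Foxa1, Hoxd11, Kmt2a, Dot1l, Meis1, Pbx2 and the caudal genes were chosen after their values were seen.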

Additional observations from a re-analysis of the deposited data

Results flagged for a closer look

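The probe set 1452493_s_at, which the annotation gives to both Hoxb8 and Hoxb7, stood outside the comparisons because it names 2 genes. It read 238 and 226 in normal ureter and 326 and 625 in the tumors, so the groups did not overlap, with a difference of 0.92 on the log2 scale that was not tested. The 2 probe sets shared by Hoxd4 and Hoxd3 lay the other way on average, with differences of -0.71 and -0.58.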

How the results depend on the processing

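With 2 arrays per group, the calls depend on the assumed spread. The number of Hox genes called was 0 in the limma test under all 15 settings but the 2 that leave out a tumor array, with 3 at an unadjusted p under 0.05 and a range over the left-out arrays of 0 to 9. Of all genes tested, 187 were called, 35 under median centring, 104 with the mean of probe sets, 357 with every probe set, 2 without the intensity trend and 0 to 5502 over the left-out arrays. With the replicate number as a block, 0 genes were called, with 2253 at an unadjusted p under 0.05. The deviations of same-numbered arrays had r = 0.04 across all 13046 genes and 0.26 across the 23 Hox genes. No label says what a number marks, and a block costs 1 of the 2 residual degrees of freedom. The Hox median ran from -0.32 to 0.61 over the left-out arrays. Hox genes above both normal arrays numbered 6 (6 to 14), and those below 4 (4 to 15), or 2 of 16 with the filter at the 60th percentile. The 14 and the 15 came from leaving out a tumor array, so that only 1 tumor array had to lie outside the normal pair. The share of all genes under those settings was not measured. The 8 Hox genes that split the tumor arrays became 5 under median centring, and 21 of 23 or more genes were higher on tumor replicate 2 under each scaling, pseudocount and the mean of probe sets. These counts between the tumor arrays, with their alternatives, were added after the data were seen. Directions turned with the mean of probe sets for Hoxa3 (-0.083), Hoxa10 (-0.091), Men1 (-0.011) and Hoxa11os (0.46), with median centring for Hoxb4 (0.0033), Hoxc10 (0.099) and Hoxb5os (0.14), with quantile normalization for Hoxc10 (0.015) and with a pseudocount of 64 for Hoxb5os (0.019). Except for the left-out arrays and the settings just named, the cause was not tested.

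Leaving out an array turned the direction of Hoxa7 (-0.54 to 0.73), Hoxa9 (-1.02 to 0.56), Hoxa10 (-0.30 to 1.27), Hoxa11 (-0.25 to 0.38), Hoxb2 (-0.32 to 0.44), Hoxb4 (-0.44 to 0.050), Hoxb5 (-0.16 to 0.67), Hoxb6 (-0.30 to 0.60), Hoxc4 (-1.41 to 0.0021), Hoxc9 (-1.81 to 0.86), Hoxc10 (-1.26 to 1.07), Hoxd3 (-0.22 to 1.92), Hoxb5os (-2.18 to 2.07), Krt7 (-1.44 to 0.088), Col3a1 (-0.13 to 0.74), Umod (-2.46 to 3.02) and Cpa3 (-1.90 to 4.9996).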
